A study of Mus musculus with 8 samples.

Results

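Oligodendrocytes, the myelin-forming cells of the brain, arise from dividing precursor cells. The genes described here mark steps of that lineage, measured in the striatum of adult female mice with 1 working copy of Brd2 and of wildtype mice. All non-control probes whose gene name in the array files was Pdgfra, Cspg4, Olig1, Olig2, Sox10, Gpr17, Nkx2-2, Sox8 or Bcan were taken, which gave 9 genes among 30175 gene names, read by 11 of 39429 probes. They filled 20 of 43020 spots, because the Pdgfra probe was printed 10 times. Of the 11 probes 10 were tested, and 1 of the Nkx2-2 probes was too dim. The 4 heterozygous samples came from Brd2+/- mice with a gene-trap vector in Brd2, and the 4 wildtype samples from mice without it, all bred from heterozygous parents on a C57Bl/6J background. No treatment is listed, no age beyond adult was stated, and the labels do not say whether each sample was a single mouse. The p-values therefore describe only the spread between these 8 samples, which may be technical. The tissue label names the prefrontal cortex beside the striatum, while the sample description names the striatum alone.

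Each of 4 2-colour arrays on 1 slide held 2 samples of the same genotype, with replicates 1 and 3 in the dye Cy3 and replicates 2 and 4 in Cy5. Genotype and single arrays can therefore not be fully told apart. Between 37.7% and 75.5% of spots were well above background in heterozygous samples, and between 43.6% and 68.9% in wildtype samples, fewer in Cy3 in both genotypes. Brd2, the targeted gene, measured at the probe of higher signal 11.81, 11.97, 12.43 and 11.82 in heterozygous replicates 1 to 4, against 12.95, 13.09, 12.50 and 12.80 in wildtype replicates (log2 intensity, dye effect removed). The groups did not overlap, and the difference was -0.83 (SE 0.188, limma adjusted p = 0.404), and it ranged from -1.05 to -0.60 over the alternatives run. Its other probe, near background, differed by 0.29 (SE 0.17). The library labelled heterozygous replicate 3 lay next to the lowest wildtype value. With the dye effect of -0.26 (Cy5 minus Cy3) removed, it measured 12.43, against a wildtype mean of 12.83. Before that removal this Cy3 library stood at 82.6% of the mean over wildtype samples of both dyes. It is kept under its label, and values without it are given for the members and the lists. The 12 markers of striatal projection neurons were all detected and all had negative differences (median -0.38, heterozygous minus wildtype, log2; -0.12 without that library). The 7 markers of cortical excitatory neurons all had positive ones (median 1.44, and 1.45 without it). In bulk samples fewer cells of a type and less RNA per cell cannot be told apart, and the part of these neuronal markers in the members' differences was not tested.

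In the lineage, precursors carry the receptor for platelet-derived growth factor and surface proteoglycans. Gpr17 marks a short stage between precursor and myelinating cell and is switched off as the cell matures. Olig1, Olig2 and Sox10 are transcription factors present through the whole lineage, and Olig2 and Sox10 are needed to make or mature these cells. Adult striatum keeps precursors scattered among its neurons and myelinating cells in the fibre bundles that cross it.

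The probes fix what each value means, and those of Pdgfra, of both Bcan variants and of 3 lineage-wide factors are shown by their last 30 bases of 60, written 5′ to 3′ in the sense of the transcript. Coordinates are those of the array files (mm9). The Pdgfra stretch lies at chr5:75593918-75593947 on the plus strand. The Bcan stretches lie on the minus strand at chr3:87791457-87791486 for transcript variant 1 and at chr3:87796466-87796495 for variant 2, 5009 bases upstream in the gene. The Olig1 stretch (chr16:91271829-91271858) and the Olig2 stretch (chr16:91228500-91228529) are both on the plus strand, 43329 bases apart, and that of Sox10 is at chr15:78985518-78985547 on the minus strand. Capitals mark AATAAA or ATTAAA, the commonest polyadenylation signals, searched in the printed sense only; 13.7% of all 39429 probes hold either in their last 30 bases. No annotation of that build was used, so exon and untranslated region are not stated.
Pdgfra: gaatactgccaaaatgtgtatgacaagctg
Bcan variant 1: aaccaggtggaAATAAAgttgtctgaaccc
Bcan variant 2: tgactgtttcatggaaaacaaaccttggaa
Olig1: aacgttctcATTAAAgtaagcggagttggg
Olig2: tagtttgagctttttgggagggggtattct
Sox10: tccagcgataccttAATAAAgtacgtagct

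The comparison asked how the lineage genes differ between heterozygous and wildtype striatum. No member passed the threshold in limma (adjusted p under 0.05 over 25292 probes), a threshold that 0.00395% of all tested probes passed. Gpr17 was lower and Olig2 higher in heterozygous samples, each with groups that did not overlap, and the groups overlapped at the other 8 tested probes. Such separation after removal of the dye effect was found at 8.57% of the 23852 probes with values in every sample, 3.77% higher and 4.8% lower in heterozygous samples, and at 4.8% before that removal. Gpr17 and Olig2 were also the 2 members with an unadjusted p under 0.05, a level reached by 8.76% of all tested probes, 4.44% higher and 4.32% lower in heterozygous samples. Both counts among 10 probes are small, and nothing particular to the members is read from them. Every difference below comes from the two-sided limma fit with dye and shared array, in log2 units of heterozygous minus wildtype, with its standard error (SE). Per-sample values of tested probes have the fitted dye effect removed except where stated. Over the 10 tested probes the median difference was 0.09, with 6 positive and 4 negative, where the median over all tested probes was -0.008 and 48.3% were positive. The members' median was 0.00 when the library labelled heterozygous replicate 3 was left out, and 0.20, 0.18, 0.15 and 0.15 without heterozygous replicate 1, heterozygous replicate 4, wildtype replicate 1 and wildtype replicate 3.

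**Figure D1:**
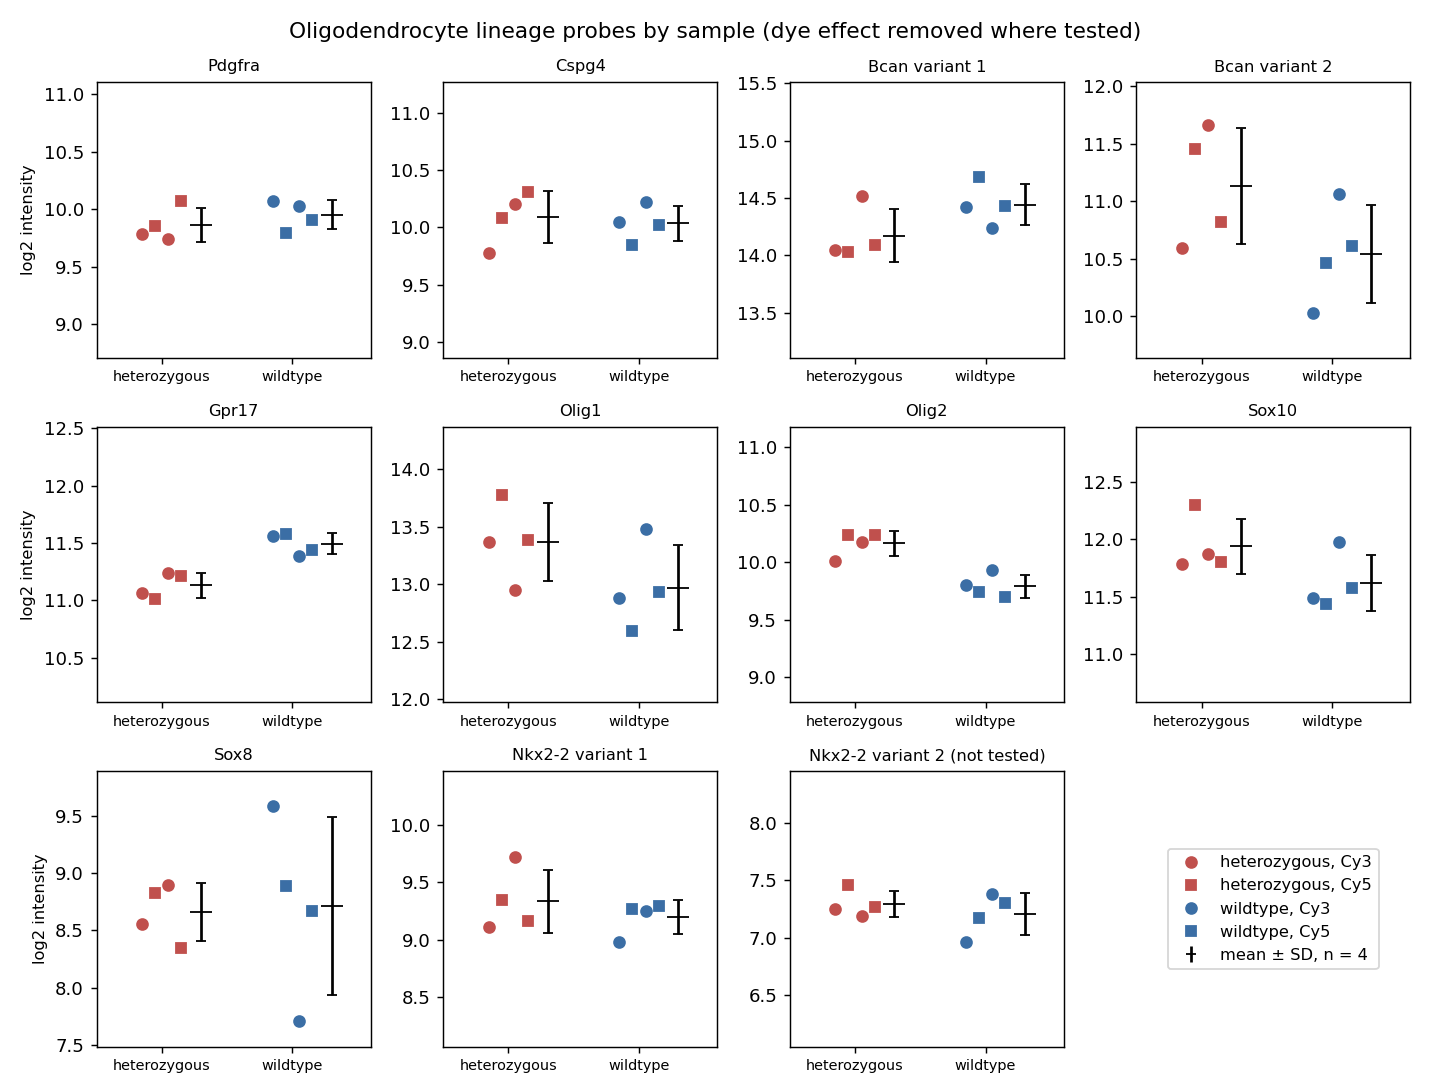
Log2 intensity (y axis, each panel spanning the same range) of the 11 probes in 4 heterozygous (red, left) and 4 wildtype (blue, right) samples; circles are Cy3, squares Cy5, and black bars the mean ± SD. The groups are apart for Gpr17 (11.01 to 11.24 against 11.39 to 11.58) and for Olig2 (10.01 to 10.24 against 9.70 to 9.93).

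Among the precursor genes, Pdgfra encodes the receptor through which platelet-derived growth factor A keeps precursors dividing. Its 10 spots averaged 9.78, 9.85, 9.74 and 10.07 in heterozygous replicates 1 to 4, against 10.07, 9.79, 10.03 and 9.91 in wildtype replicates. The groups overlapped fully, and the highest value was the same in both genotypes. The mean was 9.86 ± 0.15 in heterozygous and 9.95 ± 0.13 in wildtype samples (SD, n = 4), a difference of -0.09 (SE 0.121, limma adjusted p = 0.83). Leaving out heterozygous replicate 4 gave -0.19, and leaving out the library labelled heterozygous replicate 3 gave -0.03. The unadjusted 95% interval of the difference ran from -0.37 to 0.19. That interval is not a detection limit, and the smallest Pdgfra change that these arrays could detect was not tested.

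The repeated Pdgfra spots show how precise a single spot is. Within a sample the 10 spots had an SD of 0.129 to 0.48 (median 0.295), and 1 spot of wildtype replicate 2 was left out as an outlier. Part of that spread was shared by the samples: averaged over them, single spots deviated from the sample mean by -0.37 to 0.46. After removal of each spot's own mean the median SD was 0.132. A spot that reads high on every array cancels between samples, and every other member probe had 1 spot. The SD between samples of a genotype was 0.14.

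**Figure D2:**
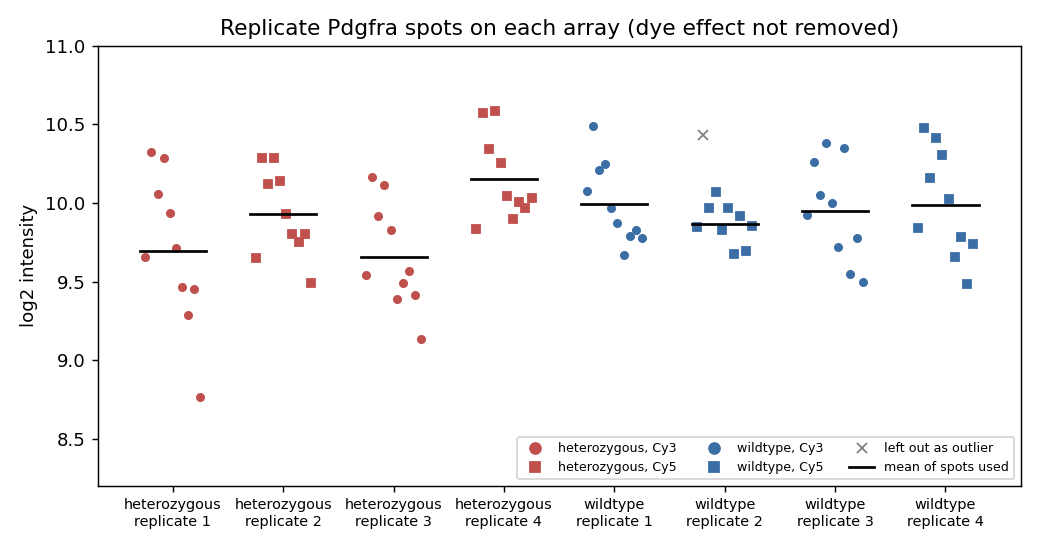
Log2 intensity (y axis) of the 10 Pdgfra spots in each sample (x axis, dye effect not removed), heterozygous in red and wildtype in blue, with the sample mean as a black line and a grey cross for the spot left out. Sample means lie between 9.66 and 10.15, while single spots reach from 8.77 to 10.58.

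Cspg4 encodes NG2, a chondroitin sulfate proteoglycan on precursors and on the pericytes of blood vessels. It measured 9.78, 10.08, 10.20 and 10.31 in heterozygous replicates, against 10.05, 9.85, 10.22 and 10.02 in wildtype replicates. The heterozygous values enclosed the wildtype ones. The difference was 0.06 (SE 0.146, limma adjusted p = 0.919), and the interval ran from -0.28 to 0.39. Leaving out heterozygous replicate 1 gave 0.18, leaving out wildtype replicate 2 gave -0.02, and leaving out the library labelled heterozygous replicate 3 gave 0.03. Of 9 markers of mural cells, the cells of the vessel wall that include pericytes, 5 had a positive difference (median 0.06, or 0.04 without that library), and Pdgfrb, the receptor of pericytes, differed by 0.38 (SE 0.136, adjusted p = 0.511). The heterozygous and wildtype values of Pdgfrb did not overlap, as at 8.57% of the 23852 probes with values in every sample. Those of the other mural markers overlapped, and 4 of the 9 had a negative difference.

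Bcan encodes brevican, a lectican of the extracellular matrix made by precursors and by astrocytes, known in a secreted form and in a shorter form held at the cell surface by a lipid anchor. Its 2 probes, shown above, lie at different places of the gene and had differences of opposite sign. Variant 1 measured 14.05, 14.03, 14.52 and 14.09 in heterozygous replicates, against 14.42, 14.68, 14.24 and 14.43 in wildtype replicates. Heterozygous replicates 1, 2 and 4 lay below every wildtype sample, and the library labelled heterozygous replicate 3 lay among them. The difference was -0.27 (SE 0.155, limma adjusted p = 0.645), and -0.41 without that library (SE 0.121, adjusted p = 0.335). It was weaker without wildtype replicate 2 (-0.17) or heterozygous replicate 4 (-0.18), and in Cy3 alone it was -0.04, against -0.49 in Cy5.

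Variant 2 of Bcan measured 10.59, 11.45, 11.66 and 10.82 in heterozygous replicates, against 10.03, 10.46, 11.06 and 10.61 in wildtype replicates. The groups overlapped, with heterozygous replicates 2 and 3 above every wildtype sample. The difference was 0.59 (SE 0.299, limma adjusted p = 0.611), and 0.37 without the library labelled heterozygous replicate 3 (SE 0.305). It was also 0.37 without wildtype replicate 1, and 0.81 without wildtype replicate 3. The direct test set the variant 2 value minus the variant 1 value of each sample side by side, without removal of the dye effect. That value was -3.44, -2.59, -2.84 and -3.29 in heterozygous replicates, against -4.37, -4.24, -3.16 and -3.83 in wildtype replicates. The means were -3.04 ± 0.39 in heterozygous and -3.90 ± 0.54 in wildtype samples (SD, n = 4), a change of 0.86 that missed the threshold in an exact two-sided permutation test (p = 0.0857, where 4 against 4 samples can give no less than 0.0286). This comparison was chosen after the values were seen. The permutation moved single samples and took no account of the arrays that samples of a genotype shared, so its p treats them as independent. Unequal change at the 2 probes was thus not shown at the threshold with these samples.

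Gpr17, the marker of the committed stage, encodes a G protein-coupled receptor that holds back maturation while it is present. Its probe (chromosome 18, 32102750 to 32102809, minus strand) measured 11.06, 11.01, 11.24 and 11.21 in heterozygous replicates, against 11.56, 11.58, 11.39 and 11.44 in wildtype replicates. Every heterozygous value lay below every wildtype value, also before removal of the dye effect. The heterozygous mean of 11.13 ± 0.11 stood 0.36 below the wildtype mean of 11.49 ± 0.09 (SD, n = 4; difference -0.36, SE 0.106), a ratio of 0.78. The adjusted p was 0.464 in limma, at rank 510 of 25292 by p, and 12.8% of all tested probes had a difference at least as large in either direction. Within dyes the difference was -0.33 in Cy3 and -0.40 in Cy5, and without the library labelled heterozygous replicate 3 it was -0.40 (adjusted p = 0.323).

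Among the lineage-wide transcription factors, Olig2, a bHLH factor that specifies the lineage, measured 10.01, 10.24, 10.18 and 10.24 in heterozygous replicates, against 9.80, 9.74, 9.93 and 9.70 in wildtype replicates. The lowest heterozygous value was above the highest wildtype value. The means were 10.17 ± 0.11 in heterozygous and 9.79 ± 0.10 in wildtype samples (SD, n = 4), a difference of 0.37 (SE 0.106) and a ratio of 1.30. The adjusted p was 0.453 in limma, and the difference was 0.23 in Cy3, 0.52 in Cy5 and 0.38 without the library labelled heterozygous replicate 3.

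Olig1, the neighbouring bHLH gene with a part in myelin maturation, measured 13.37, 13.78, 12.95 and 13.38 in heterozygous replicates, against 12.88, 12.59, 13.48 and 12.93 in wildtype replicates. The groups overlapped through wildtype replicate 3 alone, which lay above heterozygous replicates 1, 3 and 4, and the other wildtype samples lay below every heterozygous sample. The difference was 0.40 (SE 0.234, limma adjusted p = 0.645) and rested on the Cy5 samples, at 0.83 there against -0.02 in the Cy3 samples. It was smaller when heterozygous replicate 2 (0.24) or wildtype replicate 2 (0.25) was left out, and larger when wildtype replicate 3 (0.61) or the library labelled heterozygous replicate 3 (0.57) was.

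Sox10, the SoxE factor that drives myelin genes, measured 11.79, 12.30, 11.87 and 11.80 in heterozygous replicates, against 11.49, 11.44, 11.98 and 11.58 in wildtype replicates. Wildtype replicate 3 alone reached into the heterozygous range. The difference was 0.32 (SE 0.172, limma adjusted p = 0.624), with 0.10 in Cy3 and 0.54 in Cy5. It was 0.18 without heterozygous replicate 2, 0.34 without the library labelled heterozygous replicate 3 and 0.46 at most, without wildtype replicate 3. Olig1, Olig2 and Sox10 thus had differences of 0.32 to 0.40, and wildtype replicate 3 was the highest wildtype sample for all 3.

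Sox8, a relative of Sox10 that overlaps with it in function, varied most. It measured 8.56, 8.83, 8.90 and 8.35 in heterozygous replicates, against 9.58, 8.89, 7.71 and 8.67 in wildtype replicates. The wildtype samples held both the highest and the lowest value and had an SD of 0.78, against 0.25 in heterozygous samples. The difference was -0.05 (SE 0.364, adjusted p = 0.976) with an interval of -0.89 to 0.79, and leaving out the library labelled heterozygous replicate 3 gave -0.16. It was 0.32 without wildtype replicate 1 and -0.47 without wildtype replicate 3, and the probe was well above background in 4 heterozygous and 3 wildtype samples.

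Nkx2-2, a homeobox factor that in mouse acts with Olig2 at the onset of differentiation, had a brighter probe on transcript variant 1. It measured 9.11, 9.34, 9.72 and 9.16 in heterozygous replicates, against 8.98, 9.27, 9.25 and 9.29 in wildtype replicates. The library labelled heterozygous replicate 3 was the highest sample, and the difference of 0.13 (SE 0.16, limma adjusted p = 0.813) was -0.03 without it. The dye effect was the largest of the tested members, at -0.51 (Cy5 minus Cy3). The variant 2 probe was well above background in 2 heterozygous samples and 1 wildtype sample and was not tested. Its values of 7.19 to 7.46 in heterozygous and 6.96 to 7.38 in wildtype samples overlapped.

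**Figure D3:**
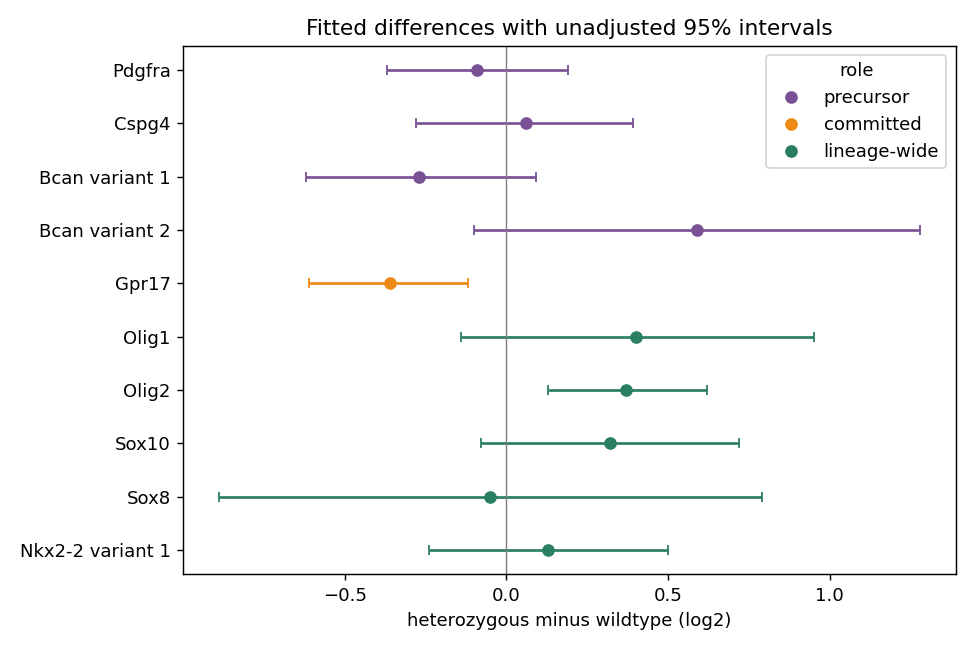
Fitted log2 difference, heterozygous minus wildtype (x axis), of the 10 tested probes (y axis) with unadjusted 95% intervals, coloured by role. The intervals of Gpr17 (-0.61 to -0.12) and Olig2 (0.13 to 0.62) leave out 0, and none of the 10 passed after adjustment over all probes.

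By role, the 4 precursor probes had a median difference of -0.02 (-0.27 to 0.59), the committed-stage Gpr17 -0.36, and the 5 tested lineage-wide probes 0.32 (-0.05 to 0.40). Averaged over the lineage-wide probes, heterozygous replicates 1 to 4 stood at 0.11, 0.44, 0.27 and 0.13 relative to wildtype, against 0.09, -0.07, 0.01 and -0.02 for the wildtype replicates. Over the precursor probes these levels were -0.19, 0.11, 0.29 and 0.08 in heterozygous replicates, against -0.10, -0.05, 0.15 and 0.00 in wildtype replicates. No score over the members was tested.

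Genes that mark the same stages outside the members were read from lists, each gene at its brightest tested probe, and none of these genes passed the threshold. Of 16 further precursor genes all were tested, with 11 positive and 5 negative differences and a median of 0.09 (0.00 without the library labelled heterozygous replicate 3). At an unadjusted p under 0.05 were 3 of the 16, where the share over all tested probes was 8.76%. Emid1 was lower, at -0.33 (SE 0.0978, adjusted p = 0.464), while Matn4 at 0.65 (SE 0.257, adjusted p = 0.543) and the dim Sox6 at 0.41 (SE 0.154, adjusted p = 0.523) were higher, both named after their values were seen. Sox5, the one of highest signal, differed by 0.25 (SE 0.216). Of 11 genes of committed and newly formed oligodendrocytes 10 were tested, 6 of them positive, with a median of 0.13 (0.07 without that library); Myrf was too dim. Bcas1, a marker of newly formed cells, differed by 0.70 (SE 0.358, adjusted p = 0.622), or by 0.28 without that library. Gpr17 thus had a negative difference, as had 4 of the 10 listed genes of its stage, while 6 had a positive one. Over all tested probes 48.3% were positive. None of the 10 had an unadjusted p under 0.05 in limma, and Gpr17 was not tested against them.

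Mature oligodendrocyte genes had a median of 0.20 over 18 tested, 14 of them positive. Mbp, myelin basic protein, had the smallest p of the list, with a difference of -0.55 (SE 0.158, adjusted p = 0.458). Averaged over this list, heterozygous replicates 1 to 4 stood at 0.00, 0.31, 0.54 and -0.07 relative to wildtype, and wildtype replicates at -0.18, 0.05, 0.04 and 0.10. The list was highest in the library labelled heterozygous replicate 3, and leaving that library out gave a median of 0.09.

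Of 15 ligands, receptors and regulators of the lineage 12 were tested and 8 were positive (median 0.21, or 0.11 without the library labelled heterozygous replicate 3), while Fgf2, Erbb3 and Gli1 were too dim. Pdgfa, the ligand of Pdgfra, differed by 0.22 (SE 0.117, adjusted p = 0.62). Hes5, a Notch effector that restrains differentiation, differed by -0.60 (SE 0.133, adjusted p = 0.40), the smallest p of the list. Among 6 lecticans and their link proteins 3 were positive (median -0.08, or -0.12 without that library), with the lectican Ncan at -0.24 (SE 0.111) and Hapln4, a link protein of perineuronal nets, at 0.72 (SE 0.243, adjusted p = 0.496). The Hapln4 probe was dim, well above background in only 3 heterozygous and 2 wildtype samples. Of 4 paralogs of members 3 were tested, with a median of 0.17 (0.02 without that library), and Olig3 was too dim.

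Markers of other cells moved between samples beside these genes. Choroid plexus markers had a median difference of 0.48 over 6, or -0.05 without the library labelled heterozygous replicate 3, and stood at -0.91, 0.31, 1.91 and 0.53 relative to wildtype in heterozygous replicates, and between -0.21 and 0.13 in wildtype replicates. Striatal projection neuron markers stood at 0.12, -0.69, -1.11 and -0.16 in heterozygous replicates, and between -0.12 and 0.13 in wildtype replicates. Cortical excitatory markers stood at 2.32, 1.48, 1.18 and 0.81 in heterozygous replicates, and at -0.25, 0.80, -0.36 and -0.19 in wildtype replicates. Gpr17 on the same scale stood at -0.43, -0.48, -0.25 and -0.28 in heterozygous replicates, and the part of these markers in the members' values was not tested.

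Astrocyte markers, which bear on Bcan, had a median of 0.10 over 14 (0.04 without the library labelled heterozygous replicate 3), with 9 positive and 5 negative. Gjb6 differed by 0.34 (SE 0.15) and Aldoc by 0.20 (SE 0.17). Meningeal fibroblast markers, some of whose cells also carry Pdgfra, had a median of 0.23 over 7 of 8 (0.21 without that library), with Slc6a13 at 0.82 (SE 0.259) and Dcn at 0.21 (SE 0.162). Vtn, the mural gene of highest signal, differed by 0.10 (SE 0.121). Markers of neuroblasts and dividing cells had a median of 0.02 over 7 of 9 (-0.16 without that library), with Dcx at 0.28 (SE 0.164) and Sox4 at 0.02 (SE 0.233). The smallest p among striatal markers was that of Foxp1 (-0.69, SE 0.164), and among cortical markers that of Slc17a7 (2.16, SE 0.406). Tbr1 differed by 1.95 (SE 0.515, limma adjusted p = 0.425), or 1.90 without that library. For Penk (-0.38, SE 0.312), Kcnj13 (0.59, SE 0.466) and Ttr (0.97, SE 0.907) that library carried most of the difference, at -0.01, 0.01 and 0.13 without it.

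**Figure D4:**
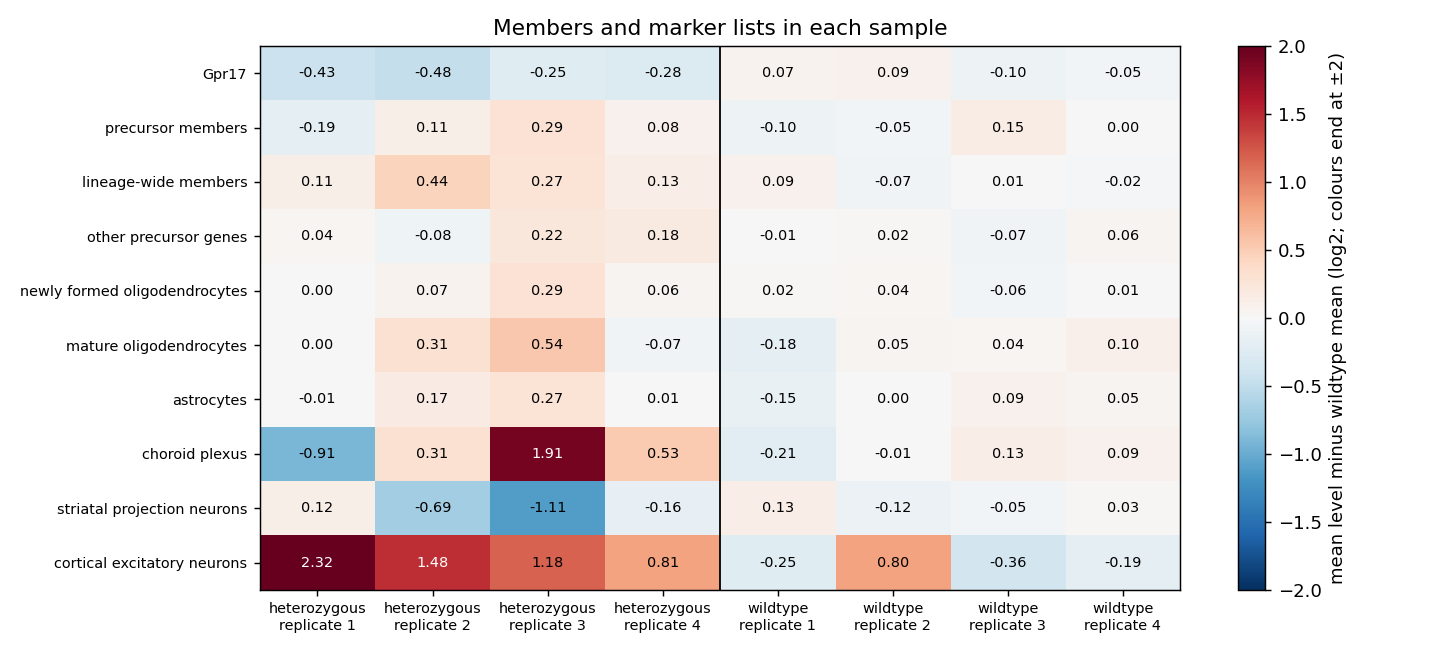
Mean level of members and marker lists in each sample (columns, heterozygous left of the black line, wildtype right) minus the wildtype mean on the log2 scale, printed in each cell and coloured from blue (lower) to red (higher). Gpr17 is negative in the 4 heterozygous samples (-0.48 to -0.25), and choroid plexus markers range from -0.91 to 1.91 there.

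The genes whose values over the 8 samples were most like the mean of Olig1, Olig2 and Sox10 were Cabyr, Tubg1, Rrp9, Map3k21, Pou3f3 and Apcdd1, with Pearson correlations of 0.989 to 0.979 among 15714 genes. Those most like Pdgfra were Ttc22, Npy2r and Zfp335, at 0.968, 0.953 and 0.95. These are descriptions of 8 samples that share arrays and dyes, and none of the 9 genes passed the threshold in limma (lowest adjusted p = 0.561).

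**Figure D5:**
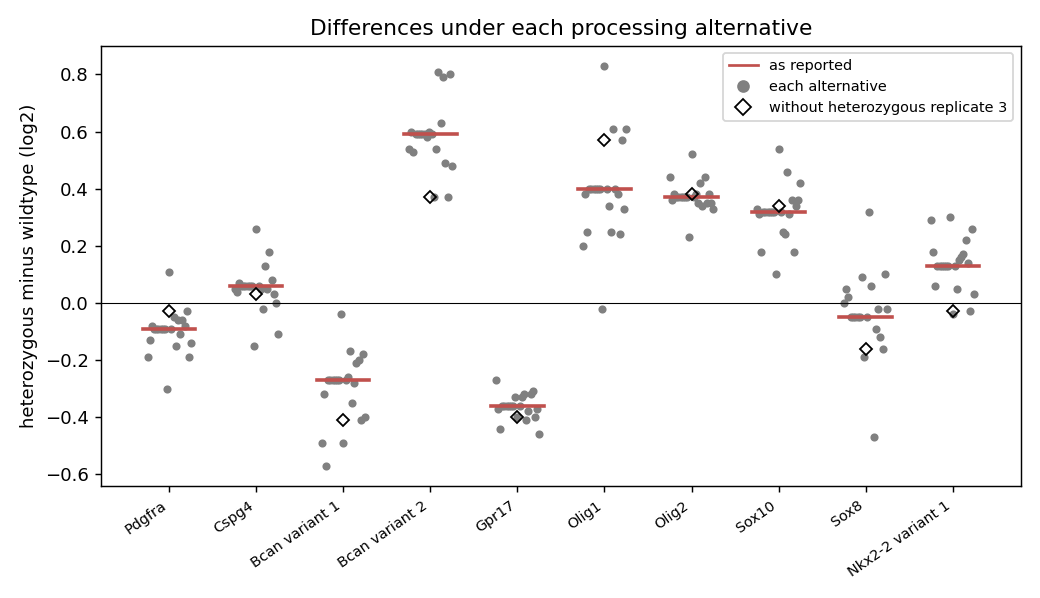
Log2 difference, heterozygous minus wildtype (y axis), of each tested probe (x axis) as reported (red line), under each processing alternative (grey points) and without the library labelled heterozygous replicate 3 (open diamond). Gpr17 stays between -0.46 and -0.27 and Olig2 between 0.23 and 0.52, while Sox8 spans -0.47 to 0.32.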

How the data were processed

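Per the file headers, Agilent Feature Extraction 10.7.3.1 (array design 026655) gave mean and background intensity for both dyes of every spot, together with a processed intensity and flags. Only the dye channel that the labels name for a sample was used for it. The deposited value table holds a ratio of background-subtracted median intensity to the column median, found from its values, and served as an alternative.

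Background correction was normexp with an offset of 50, followed by loess normalization inside each array, Aquantile across arrays and conversion to log2 values of single channels in limma 3.58.1 (R 4.3.3; statmod 1.5.0 for the block). The 1377 control spots and outlier spots (230 to 978 per sample) were left out, spots of a probe were averaged, and no spot was saturated. A probe was tested if well above background in at least 4 of 8 samples with at least 2 values per genotype (25292 probes). limma's lmFit and eBayes used genotype and dye, with the array as a random block (consensus correlation -0.0097), Benjamini-Hochberg adjustment and a threshold of 0.05. Values per sample of tested probes have the fitted dye effect removed except where stated. List genes were named by accession through RefSeq (GRCm38.p6; 27234 probes) or by the file's name. Members, lists and tests were chosen with earlier results of these data known. Named genes are the members, Brd2, the smallest p and the brightest gene of each list, and the nearest patterns; 1 gene that this rule names is not reported here. The fit was tested on simulated data. Alternatives covered background correction, normalization, the value table, the filter, the probe per gene, array, replicate and dye terms, the variance model, the threshold and left-out samples. Replicate numbers did not pair the samples. Figures used matplotlib 3.10.9.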

Additional observations from a re-analysis of the deposited data

Results flagged for a closer look

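Each genotype's 4 values of the 10 tested probes were searched for a sample far from the other 3, which made 20 groups, and chance flags about 1 in 20. Sox10 measured 12.3 in heterozygous replicate 2, far above the 11.79 to 11.87 of the other heterozygous samples. Bcan variant 1 measured 14.52 in the library labelled heterozygous replicate 3, against 14.03 to 14.09 in the other 3. Nkx2-2 variant 1 measured 8.98 in wildtype replicate 1, below the 9.25 to 9.29 of the other wildtype samples.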

How the results depend on the processing

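No member passed the threshold under any of the alternatives run. Gpr17, Olig2, Sox10 and both Bcan probes kept their sign in all of theirs, Gpr17 between -0.46 and -0.27 and Olig2 between 0.23 and 0.52. Signs turned for Sox8 with the processed signals (0.00), quantile normalization (0.05), the value table (0.02) and Cy3 alone (0.09), and it spanned -0.47 to 0.32 over left-out samples, with positive values without wildtype replicate 1 (0.32), wildtype replicate 2 (0.06) or heterozygous replicate 4 (0.10). In Cy3 alone Olig1 was -0.02 and Cspg4 -0.15; in Cy5 alone Pdgfra was 0.11 and Nkx2-2 variant 1 -0.04. Left-out samples put Cspg4 between -0.02 (without wildtype replicate 2) and 0.18 and Nkx2-2 variant 1 between -0.03 (without the library labelled heterozygous replicate 3) and 0.26, and leaving out the array of heterozygous replicates 3 and 4 put Cspg4 at -0.11. The median of the members was 0.03 in Cy3, 0.18 in Cy5, 0.00 without that array and 0.00 to 0.20 over left-out samples. The count of probes past the threshold, 1 as reported (Btbd9, difference 1.83, named after its value was seen), was 2 at an adjusted p under 0.10 and 0 with quantile normalization, the value table, no filter, the brightest probe of each gene, Cy3 alone, the replicate block or without that array, and 0 to 1 over left-out samples (1 only without the library labelled heterozygous replicate 3). Brd2 ranged from -1.05 to -0.60. Without the library labelled heterozygous replicate 3 the list medians were 0.00 for further precursor genes, 0.07 for newly formed oligodendrocytes, 0.02 for paralogs, -0.16 for neuroblasts, -0.12 for striatal neurons and -0.05 for choroid plexus. Deviations of same-numbered samples correlated at 0.16, -0.30, -0.19 and -0.26, so the numbers were not taken as pairing; the replicate block left Gpr17 at -0.36 (adjusted p = 0.448) and Olig2 at 0.37 (adjusted p = 0.426). Sox8 and the second Nkx2-2 probe lay near background, which limits both. Sox8 had no value with the filter on all 8 samples, nor had Bcan variant 2 with 1 probe per gene. The cause was not tested for any of these changes.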
